A study of Mus musculus with 6 samples.

Results

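Etv6, Elf1, Elf4, Elk3 and Gabpa are 5 of the genes that encode ETS transcription factors in the mouse, out of 21887 protein-coding genes examined. A peak was counted for one of them when its summit, the position of highest signal, lay in the gene span or nearer to it than to any other protein-coding gene on mm10. By this rule the 5 genes held 44 of the 47233 peaks listed for inv(16) cells with Smc3 D/+ (Smc3 het) and 5 of the 14830 listed for inv(16) cells with Smc3 +/+ (Smc3 wt). The peaks came from ATAC-seq, in which the Tn5 transposase cuts open chromatin and tags it for sequencing, on lineage-depleted bone marrow labelled HSPC (hematopoietic stem and progenitor cells). Both groups had 3 libraries. Both carried inv(16), the inversion that fuses the core-binding factor gene CBFB to MYH11 in human acute myeloid leukemia, and both were given as virally transduced with tamoxifen induction of an element the labels call Creon. They differed in Smc3, a ring subunit of cohesin, and the labels do not define the D allele further. The labels name no promoter for the recombinase and no strain, age or pooling of animals.

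Each genotype has a single list of peaks and no values for its separate libraries. Differences between the lists therefore have no replicate error and are given without p-values. Read depth is unknown. The authors' fold and p-values implied a genome-wide background pileup (reads expected over a position) of 10.6 in Smc3 het and 8.65 in Smc3 wt. Marker genes were counted by the same nearest-gene rule. Of all protein-coding genes 73.3% had a Smc3 het peak and 47.0% a Smc3 wt peak. The mean per gene was 2.18 Smc3 het and 0.687 Smc3 wt peaks. Of 8 stem and progenitor markers 7 had a Smc3 het peak and 3 a Smc3 wt peak, with 42 and 9 peaks in all. The 4 monocyte and macrophage markers held 32 Smc3 het and 3 Smc3 wt peaks, and the 4 megakaryocyte markers 16 and 5. The other classes had few, with 5 and 0 at 4 B cell markers, 5 and 3 at 4 T and NK cell markers, 3 and 1 at 4 erythroid markers and 5 and 2 at 4 neutrophil markers. Of 4 markers of unrelated tissues 2 had a Smc3 het peak, as did 2 of the B cell markers. Neither list had a peak inside any of the T and NK cell markers, nor inside Ly6a, Slamf1 or the B cell receptor gene Cd79a. The part of these cell types in the results below was not tested. In bulk libraries of lineage-depleted marrow, fewer cells of a type and less open chromatin per cell cannot be told apart.

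ETS factors share a DNA-binding domain that recognises the core GGAA, and differ in the flanking bases they prefer and in whether they activate or repress. ETV6 (also TEL) is a repressor with a pointed domain that is required for stem cells of the adult mouse marrow, and it is a frequent fusion partner in human leukemia. ELF1 and ELF4 (also MEF) are related activators of blood cells, and ELF4 bears on stem-cell quiescence in mice. ELK3 (also Net) is a ternary complex factor that acts with SRF and mostly represses. GABPA is a widely expressed factor that pairs with GABPB and regulates many basal and mitochondrial genes.

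The promoter sequences of all 5 genes are shown because the lists differed between their starts: Smc3 het had a peak at each, while Smc3 wt had none at Elk3 and one at only 1 of the pair of listed starts of Elf1 and of Elf4. They are the 250 bases before the start, from RefSeq on GRCm38.p6 (the assembly of mm10), written 5′ to 3′ on the gene's strand. All 5 genes matched the table, with 7 starts in all. Capitals mark GGAA and its reverse complement TTCC. The Etv6 window is at chr6:134035450-134035699 (+ strand) and was covered in both lists, and the Elk3 window is at chr10:93311160-93311409 (- strand) and was covered in Smc3 het only. The upstream Elf1 start is at chr14:79480944-79481193 (+ strand) and was covered in both lists, and the downstream Elf1 start is at chr14:79515424-79515673 (+ strand) and was covered in Smc3 het only. The upstream Elf4 start is at chrX:48463133-48463382 (- strand), covered in Smc3 het only, and the downstream Elf4 start is at chrX:48454320-48454569 (- strand), covered in both. The Gabpa start is at chr16:84834874-84835123 (+ strand), covered in both. Covered means a peak over at least part of the stretch from these 250 bases to 50 bases after the start. Of the 250 bases shown, Smc3 het peaks covered all in the 4 windows covered in both lists, 203 at Elk3, 106 at the downstream Elf1 start and 69 at the upstream Elf4 start. Smc3 wt peaks covered all 250 at Etv6, Gabpa and the upstream Elf1 start and 93 at the downstream Elf4 start.
Etv6: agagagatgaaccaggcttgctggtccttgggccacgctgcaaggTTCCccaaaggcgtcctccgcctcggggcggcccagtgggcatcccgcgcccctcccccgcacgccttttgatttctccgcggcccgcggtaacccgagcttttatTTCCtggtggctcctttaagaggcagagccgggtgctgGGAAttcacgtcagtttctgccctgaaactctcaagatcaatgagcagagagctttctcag
Elf1 upstream: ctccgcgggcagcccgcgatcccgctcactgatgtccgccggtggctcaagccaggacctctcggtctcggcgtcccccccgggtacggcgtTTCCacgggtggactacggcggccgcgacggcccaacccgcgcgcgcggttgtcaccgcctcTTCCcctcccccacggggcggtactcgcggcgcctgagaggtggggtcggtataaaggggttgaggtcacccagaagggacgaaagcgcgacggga
Elf1 downstream: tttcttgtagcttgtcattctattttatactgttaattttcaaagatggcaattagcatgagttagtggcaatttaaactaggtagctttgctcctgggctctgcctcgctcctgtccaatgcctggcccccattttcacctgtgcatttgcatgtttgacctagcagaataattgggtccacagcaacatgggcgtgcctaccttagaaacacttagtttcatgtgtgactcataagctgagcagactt
Elf4 upstream: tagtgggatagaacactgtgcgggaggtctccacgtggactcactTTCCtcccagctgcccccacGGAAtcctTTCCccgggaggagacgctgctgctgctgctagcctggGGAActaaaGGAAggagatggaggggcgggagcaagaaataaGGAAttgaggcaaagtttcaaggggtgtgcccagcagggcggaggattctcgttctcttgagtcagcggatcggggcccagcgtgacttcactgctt
Elf4 downstream: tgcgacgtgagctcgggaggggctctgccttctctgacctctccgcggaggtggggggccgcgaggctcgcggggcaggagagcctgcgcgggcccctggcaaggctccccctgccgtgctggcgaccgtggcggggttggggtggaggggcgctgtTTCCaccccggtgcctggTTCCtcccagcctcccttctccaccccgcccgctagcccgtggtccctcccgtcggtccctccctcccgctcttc
Elk3: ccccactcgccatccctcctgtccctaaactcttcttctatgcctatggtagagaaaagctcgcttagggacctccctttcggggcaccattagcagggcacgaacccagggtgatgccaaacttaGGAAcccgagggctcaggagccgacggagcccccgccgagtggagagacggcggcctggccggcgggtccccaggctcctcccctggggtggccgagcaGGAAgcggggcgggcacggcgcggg
Gabpa: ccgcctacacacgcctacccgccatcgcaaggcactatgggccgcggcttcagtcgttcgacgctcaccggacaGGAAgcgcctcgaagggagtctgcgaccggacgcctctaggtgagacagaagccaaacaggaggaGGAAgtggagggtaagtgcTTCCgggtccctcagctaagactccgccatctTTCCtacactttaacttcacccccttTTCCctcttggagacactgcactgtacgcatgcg

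Most peaks at these genes were in the Smc3 het list alone. Of the 44 Smc3 het peaks 39 overlapped no Smc3 wt peak by 1 bp or more, which is 88.6% (exact Clopper-Pearson 95% interval 75.4 to 96.2, counting error only). Over all placed Smc3 het peaks the share was 69.9%. The 44 peaks lie in 5 genes and are not independent of each other. The interval is therefore no test against that share. The other 5 Smc3 het peaks each overlapped 1 of the 5 Smc3 wt peaks, so 0 of the 5 Smc3 wt peaks were alone, against 2.9% of all Smc3 wt peaks. The 5 genes differed widely in these counts. Etv6 had 17 Smc3 het peaks, Elf1 11, Elf4 9, Elk3 6 and Gabpa 1, and the numbers alone were 15, 10, 8, 6 and 0. In Smc3 wt, Etv6 had 2 peaks, Elf1, Elf4 and Gabpa 1 each, and Elk3 0. Of all protein-coding genes 56.4% had at least 1 such peak alone, so that having 1 sets none of the 4 genes apart. At least as many Smc3 het peaks as at Etv6 were seen at 0.562% of genes. For Elf1 this share was 2.16%, for Elf4 3.76% and for Elk3 9.32%. Long genes can hold more peaks. Per 100 kb of gene span the number of Smc3 het peaks inside the gene was 6.82 for Etv6, 10.9 for Elf1, 13.4 for Elf4, 4.71 for Elk3 and 3.46 for Gabpa. Among these 5, Elf4 and not Etv6 was the densest, but 4 of the 7 peaks inside Elf4 lay within 1789 bp. No density was computed over all genes.

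**Figure D1:**
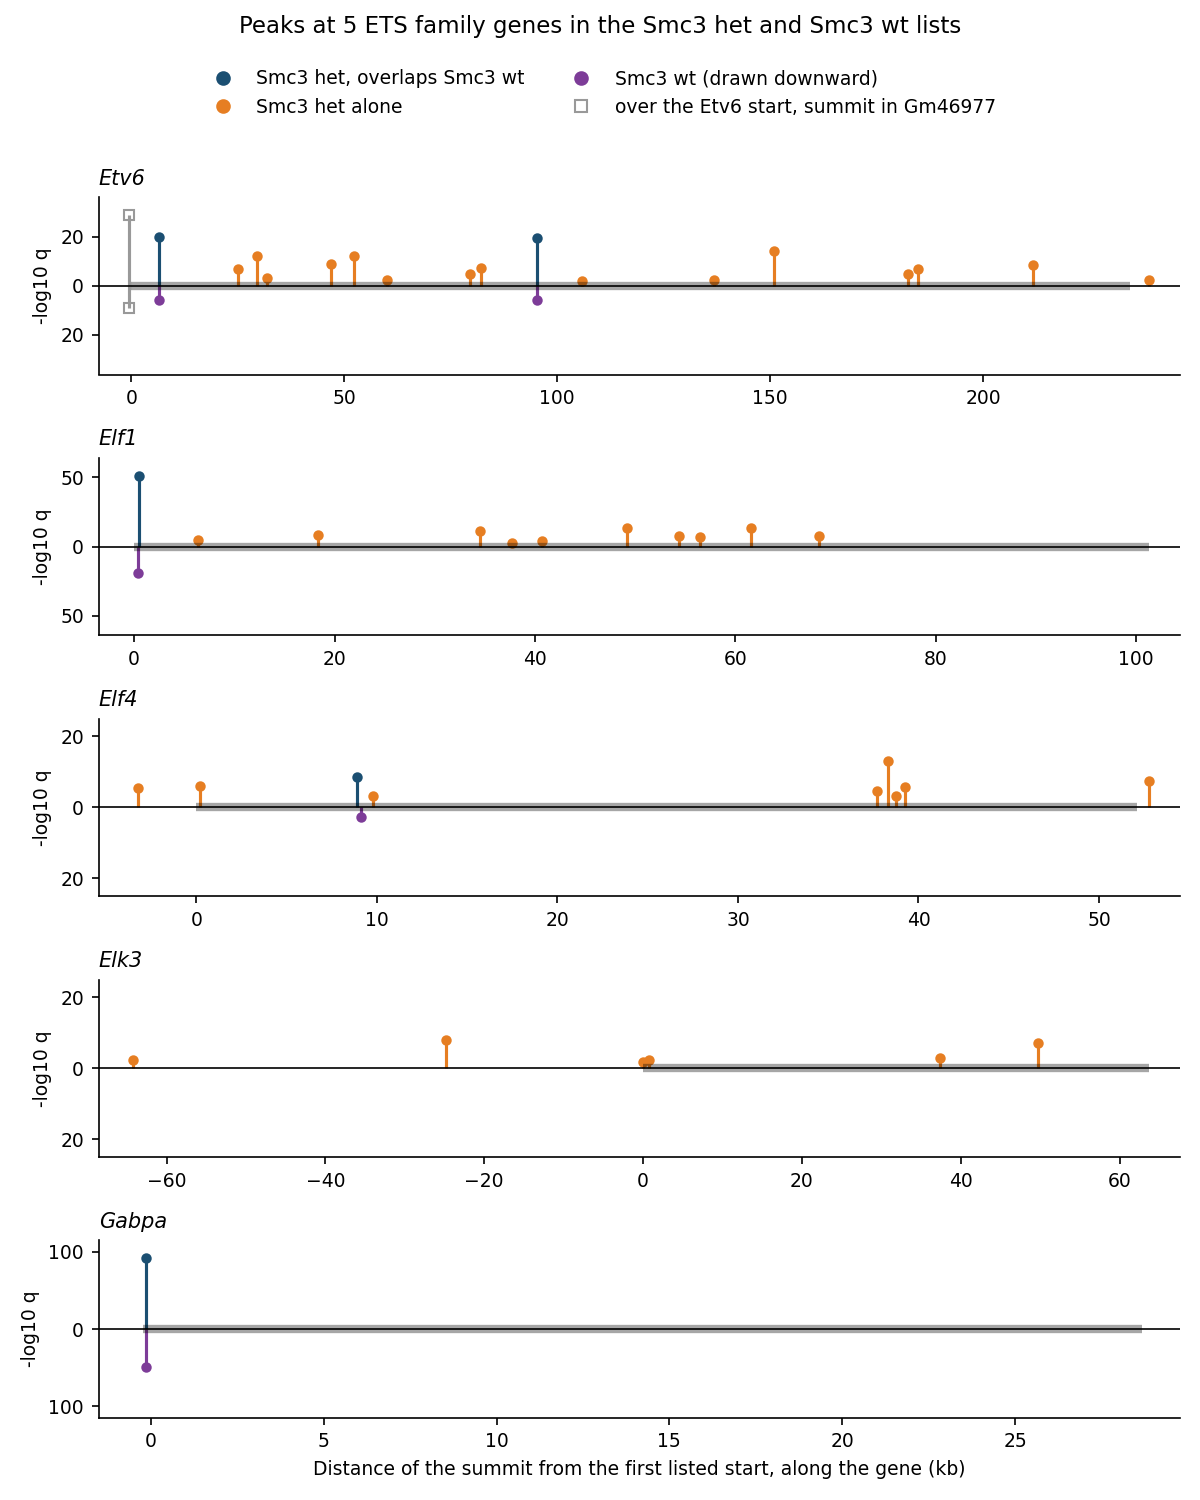
Position and significance of every peak at the 5 genes. The horizontal axis is the distance of the summit from the first listed start in kb, the vertical axis is -log10 q, with Smc3 het drawn upward and Smc3 wt downward, the grey bar is the gene span and grey squares are the peak over the Etv6 start. Smc3 wt points lie only where Smc3 het points do, and the 6 Elk3 points have no Smc3 wt counterpart.

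At Etv6 (chromosome 6, 134035700 to 134270158) the peaks were spread through the gene and 16 of 17 lay inside it. The shared peaks were the 2 most significant of the 17. The first lay 6394 bp into the gene at 134041793 to 134042333 in Smc3 het, with a fold over background of 4.19, a -log10 q of 19.9 and a pileup of 69 at the summit. In Smc3 wt it was at 134041879 to 134042265, with a fold of 3.03, a -log10 q of 5.99 and a pileup of 36, and the summits were 2 bp apart. The second lay 95259 bp into the gene at 134130799 to 134131106, with a fold of 4.51, a -log10 q of 19.6 and a pileup of 62. Its Smc3 wt counterpart, at 134130800 to 134131032, had a fold of 3.31, a -log10 q of 6.03 and a pileup of 31, with the summits 53 bp apart. Fold and q are those of each list against its own background, and the pileup is the signal of that list at the summit. Ranks and values from lists of such different length cannot establish a change between genotypes.

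The other 15 Etv6 peaks were in the Smc3 het list alone. Their fold ran from 2.2 to 3.92 (median 3.0), their -log10 q from 1.94 to 14.1 (median 7.01) and their pileup from 25 to 53 (median 37). The most significant of them was at 134186408 to 134186574, 150804 bp into the gene, with a fold of 3.92 and a pileup of 53. The next were at 134087767 to 134087929 (fold 3.8, pileup 47) and at 134065128 to 134065433 (fold 3.69, pileup 49), both with a -log10 q of 12.0. These 3 peaks were thus well inside the list's threshold of a q of 0.05, while the weakest, at 134141492 to 134141671, had a fold of 2.2. Of the 15 peaks 5 were narrower than the narrowest Smc3 wt peak anywhere (208 bp), among them the 2 at 134186408 (167 bp) and 134087767 (163 bp). The only peak outside the gene lay 4504 bp beyond its end.

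The peak over the start of Etv6 is not among the 17, because its summit lay in the neighbouring gene Gm46977. It was present in both lists. In Smc3 het it spanned 134034951 to 134036168 with a fold of 4.92, a -log10 q of 29.1 and a pileup of 84, and its summit was 469 bp before the start. In Smc3 wt it spanned 134034937 to 134036109 with a fold of 3.51, a -log10 q of 9.13 and a pileup of 42, and its summit was 662 bp before the start. Counted with Etv6, which was decided after its values were seen, it would make 18 Smc3 het peaks, of which 15 alone. It would be the most significant of them, so that the start of Etv6 was listed as open in both genotypes.

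At Elf1 (chromosome 14, 79481174 to 79582491) the single shared peak lay over the upstream start, whose sequence is shown above. It spanned 79480786 to 79481950 in Smc3 het, with a fold of 6.55, a -log10 q of 51.2 and a pileup of 113. In Smc3 wt it spanned 79480877 to 79481937, with a fold of 4.91, a -log10 q of 18.7 and a pileup of 55. The same peak covered the start of Wbp4, a splicing factor gene read from the opposite strand, so its signal cannot be given to Elf1 alone. The other 10 peaks all lay within the gene and had no Smc3 wt counterpart, with folds from 2.26 to 4.13, -log10 q from 2.43 to 13.4 and pileups from 28 to 47. The most significant of them were a pair of equal values, at 79530256 to 79530564 and 79542683 to 79542946, each with a fold of 4.13, a -log10 q of 13.4 and a pileup of 47. The next, at 79515568 to 79515868, had a fold of 3.82, a -log10 q of 11.3 and a pileup of 44. Its summit lay 1 bp before the downstream start, and no Smc3 wt peak covered that start.

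At Elf4 (chromosome X, 48411049 to 48463132) the shared peak was the second most significant of the 9 Smc3 het peaks and near the threshold in Smc3 wt. It lay over the downstream start, at 48453936 to 48454632 in Smc3 het with a fold of 3.44, a -log10 q of 8.61 and a pileup of 39, which put it 40.5% of the way down that list by significance. In Smc3 wt it spanned 48453992 to 48454412 with a fold of 2.59, a -log10 q of 2.59 and a pileup of 24, and was 94.3% of the way down its list. The summits were 222 bp apart, against a median of 43 bp over all shared Smc3 wt peaks, and 9.87% of these were as far apart or farther. The upstream start was covered by a peak in the Smc3 het list alone, at 48462710 to 48463201, with a fold of 3.01, a -log10 q of 5.96 and a pileup of 34. The most significant Smc3 het peak of the gene was not the shared one but lay at 48424631 to 48425035, with a fold of 3.87, a -log10 q of 13.1 and a pileup of 50, 29471 bp into the gene from the downstream start. The next of those alone was at 48410069 to 48410375, 708 bp beyond the gene, with a fold of 3.27 and a -log10 q of 7.51. Over its 8 peaks without a Smc3 wt counterpart, the fold ran from 2.41 to 3.87 and the pileup from 28 to 50.

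Elk3 (chromosome 10, 93247415 to 93311159) had no Smc3 wt peak, and its 6 Smc3 het peaks were the weakest of the group, with a median -log10 q of 2.6. Of all genes 47.0% had a Smc3 wt peak. The most significant was at 93335837 to 93336255, 24800 bp before the gene, with a fold of 3.36, a -log10 q of 8.06 and a pileup of 38. The next, at 93261078 to 93261518 inside the gene, had a fold of 2.99, a -log10 q of 6.98 and a pileup of 40, and the third, at 93273700 to 93273868, had a fold of 2.33, a -log10 q of 2.79 and a pileup of 29. The start of Elk3 was covered by a peak at 93311195 to 93311397 with a fold of 2.15, a -log10 q of 1.69 and a pileup of 24. That peak was 97.7% of the way down the Smc3 het list by significance, just inside its threshold.

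Gabpa (chromosome 16, 84834891 to 84863783) was the opposite case, with 1 peak in each list and none alone. The peak spanned 84834446 to 84835610 in Smc3 het, with a fold of 9.2, a -log10 q of 92.0 and a pileup of 157, among the most significant 1.39% of that list. In Smc3 wt it spanned 84834673 to 84835656, with a fold of 7.35, a -log10 q of 48.6 and a pileup of 98, among the most significant 4.54%. The summits were 1 bp apart. The peak also covered both listed starts of Atp5j, a subunit gene of the mitochondrial ATP synthase on the opposite strand, so it belongs to both genes.

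Counted by start rather than by gene, the Smc3 wt list held a peak at 4 of the 7 listed starts and the Smc3 het list at all 7. Here a start window is the stretch from 250 bases before to 50 bases after a start. Smc3 wt peaks covered the Etv6, Gabpa, upstream Elf1 and downstream Elf4 windows. The downstream Elf1, upstream Elf4 and Elk3 windows were covered in Smc3 het only. Over the 21263 start windows of protein-coding genes, 35.8% were covered in both lists, 11.1% in Smc3 het only and 53.0% in neither.

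The start windows also differed in sequence. The upstream Elf1 window, covered in both lists, held 35 CG dinucleotides in its 250 bases, and the downstream one, covered in Smc3 het only, held 2. At Elf4 the shared downstream window held 23 and the upstream one 11. The other windows did not keep this order, as Elk3, covered in Smc3 het only, held 19, the same as the shared Gabpa window and more than the 16 of the shared Etv6 window. Over all windows the median was 18 where both lists had a peak, 13 where only Smc3 het had and 3 where neither had. The core GGAA (both strands) was found in 6 of the 7 windows, all but the downstream Elf1 one, and in 93.2% of all windows. The upstream Elf4 window held 6 matches, a number reached by 8.87% of windows, and 0 of the 6 lay in the part that the Smc3 het peak covered. The longer CCGGAAG, which contains the core, was found in the Gabpa window and in 8.98% of all. The AP-1 motif TGANTCA, its own reverse complement, was found in the downstream Elf1 and upstream Elf4 windows, both covered in Smc3 het only, with each match under the peak, and not in the Elk3 window. It was in 5.29% of all windows covered in Smc3 het only, in 3.29% of those covered in both and in 6.13% of all. The RUNX motif TGTGGT had no match in the 7 windows, against 12.4% of all. The same held for the GATA motif AGATAA, against 8.81% of all. CCAAT was found in the downstream Elf1 window (35.4% of all) and CACGTG in the upstream Elf4 window (6.63% of all). A match is only a match of letters.

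Sharing was commonest among the most significant peaks, at these genes as in the whole list. Only 5 member peaks were shared, too few to show how sharing changed over the lower quintiles. In the most significant quintile of the Smc3 het list (-log10 q of 19.5 or more) the 5 genes had 4 peaks, 0 of them alone, where 8.94% of all peaks in that quintile were alone. In the second quintile (8.92 to 19.5) they had 8 peaks, 8 of them alone, against 59.5% of all peaks there. Inside gene spans and away from start windows it was 7 of 7, against 64.7%. For that position the first quintile had 0 of 2 alone against 15.5%, and the third 10 of 10 against 88.4%. The fourth had 7 of 7 against 95.8% and the last 7 of 7 against 98.5%. In the third quintile, which holds the shared Elf4 peak, 14 of 15 were alone against 87.1%, in the fourth 7 of 7 against 95.7% and in the last 10 of 10 against 98.5%. The 8 peaks of the second quintile, at Etv6, Elf1 and Elf4, are therefore where the members' count departed most from the list. These 8 peaks lie in 3 genes, are not independent of each other and were singled out by this departure. The count of 8 of 8 also depends on where the quintile begins. The 2 shared Etv6 peaks, with a -log10 q of 19.9 and 19.6, lay just above its upper limit of 19.5.

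**Figure D2:**
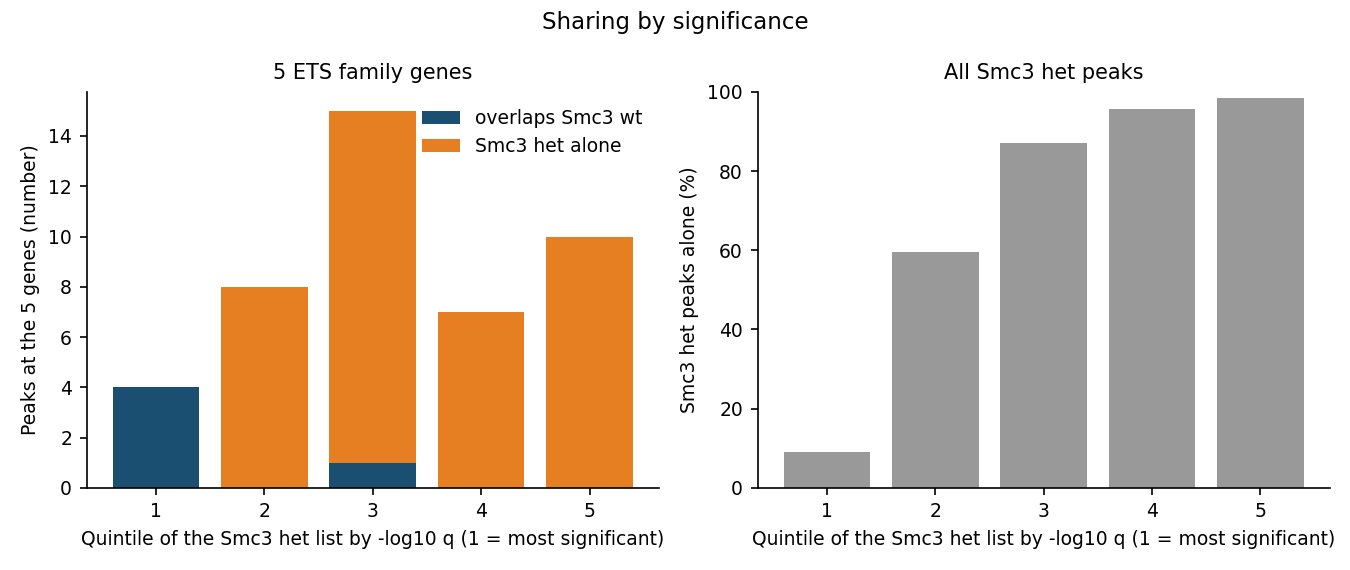
Smc3 het peaks by quintile of the list, ordered by -log10 q. The left panel counts the 44 peaks at the 5 genes, split by overlap with Smc3 wt, and the right panel gives the percentage of all Smc3 het peaks that were alone. Shared peaks at the 5 genes lie in the first quintile (4) and the third (1).

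Sharing also differed by position. The 6 member peaks over a start window were alone in 3 cases, where 23.2% of all such peaks were. The peak over the Etv6 start, which was shared, is not among these 6 because its summit lay in Gm46977. Of the 33 inside a gene span away from start windows 31 were alone, against 79.5% of all such peaks. Of the 5 outside gene spans 5 were alone, against 80.1%. With only the 14830 most significant Smc3 het peaks kept, as many as the Smc3 wt list holds, 10 member peaks were left and 6 of them were alone, against 23.9% of all peaks kept. They were 3 of 5 at Etv6, 2 of 3 at Elf1 and 1 of 1 at Elf4, with 0 of 1 at Gabpa and no peak at Elk3. Of the 10 member peaks left, only those at the Gabpa and upstream Elf1 starts lay over a start window. The 23.9% covers peaks of every position, and no share by position was computed at equal length, so the comparison is not like for like. In the other direction 1 of the 5 Smc3 wt peaks, that at Elf4, lost its counterpart, since the Smc3 het peak there was not among those kept, against 22.4% of all Smc3 wt peaks.

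The members' peaks alone had a higher median width and significance than such peaks in general. Their median width was 297 bp, against 246.5 bp for all Smc3 het peaks alone, and 9 of the 39 were narrower than any Smc3 wt peak, against 36.3%. Their median fold was 2.99 against 2.73, and their median -log10 q 5.96 against 4.64. Their pileup ran from 24 to 53 with a median of 36. Elk3 went the other way in fold and significance, with medians of 2.325 and 2.6 over its 6 peaks. The narrow peaks were 5 of 15 at Etv6, 2 of 6 at Elk3, 1 of 10 at Elf1 and 1 of 8 at Elf4. Of the shared peaks the widest were those over the Gabpa and upstream Elf1 starts (1165 bp each). The shared Etv6 peak 95259 bp into the gene was no wider than many peaks alone (308 bp) but had a pileup of 62.

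**Figure D3:**
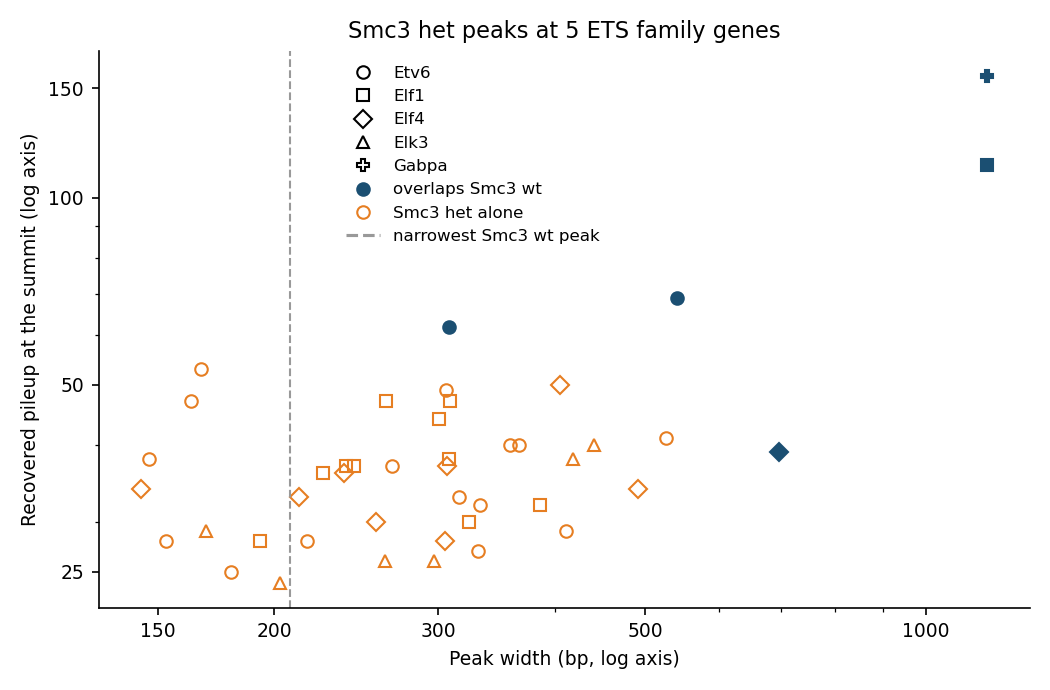
Width in bp and recovered summit pileup of the 44 Smc3 het peaks at the 5 genes, both on log axes. Filled points overlap a Smc3 wt peak, open points do not, and the dashed line marks the narrowest Smc3 wt peak (208 bp). The shared Elf4 peak, with a pileup of 39, is the only filled point within the range of the open ones (24 to 53).

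Among 26 ETS family genes, including these 5, 22 had at least 1 Smc3 het peak and 16 at least 1 Smc3 wt peak. Of all protein-coding genes 73.3% had at least 1 Smc3 het peak and 47.0% at least 1 Smc3 wt peak. The other 21 genes held 82 Smc3 het peaks, 57 of them alone (69.5%), close to the whole list. Etv6 and Erg, a stem-cell ETS factor, had the most Smc3 het peaks, 17 each, with 15 and 14 alone. Fli1, named in the study's title, had 13 with 12 alone, Ets1 10 with 6 alone and Spi1, which encodes the myeloid factor PU.1, 4 with 2 alone. Elf3, Etv2, Fev and Spdef had no peak in either list. Elf2, the closest relative of Elf1 and Elf4 in the list, had 9 Smc3 het peaks with 6 alone and 4 Smc3 wt peaks, all shared, which is more Smc3 wt peaks than Elf1 and Elf4 had together. Elf2 was singled out after its values were seen. Over the 2 lists, 6 other protein-coding genes had the same 4 counts as Etv6 (2 shared and 15 alone in Smc3 het, 2 shared and 0 alone in Smc3 wt). Those nearest to it in gene length were Ttc7b, Mad1l1 and Epha7.

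**Figure D4:**
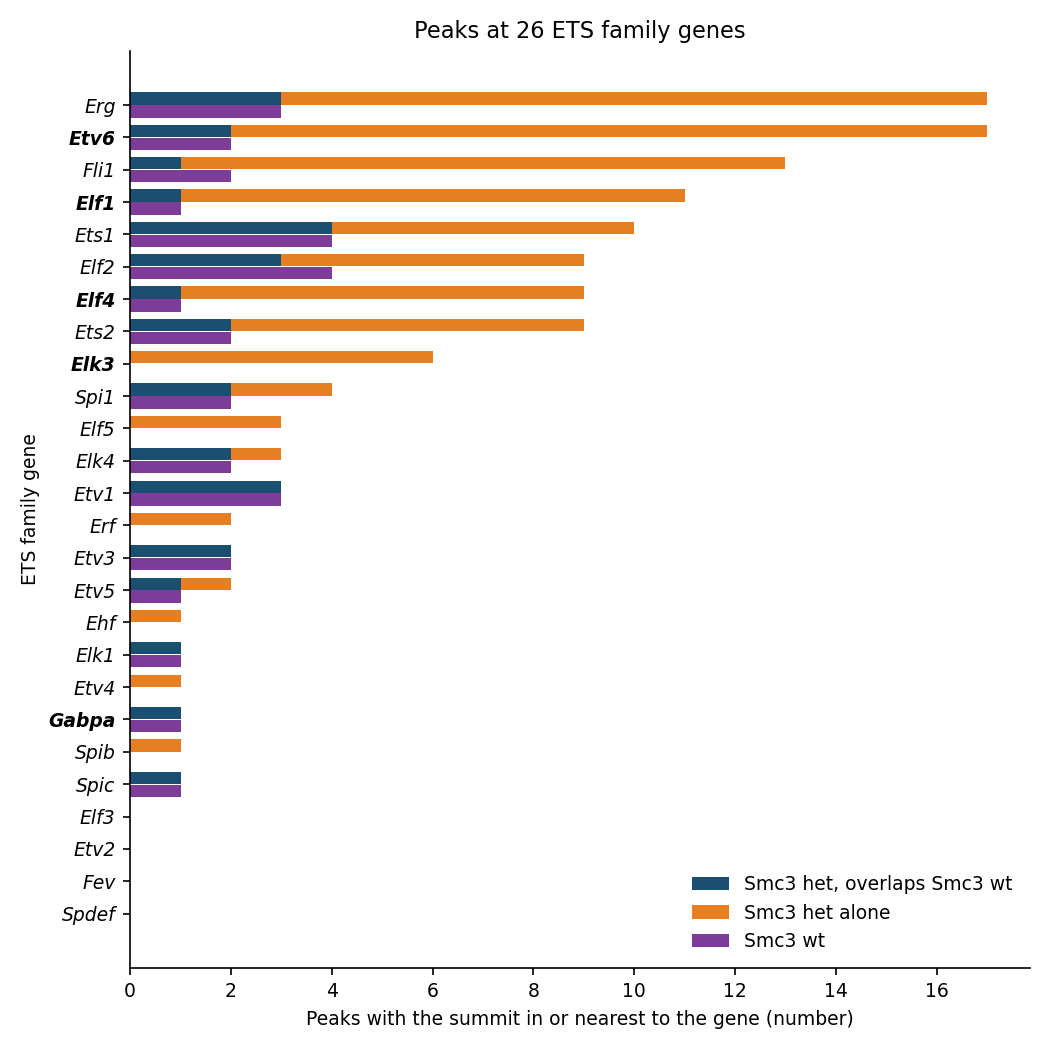
Number of peaks at 26 ETS family genes, with the 5 genes described here in bold. The upper bar of each pair is the Smc3 het list, split into peaks that overlap a Smc3 wt peak and peaks alone, and the lower bar is the Smc3 wt list. Etv6 and Erg have 17 Smc3 het peaks each, and Elk3 has 6 with no Smc3 wt peak.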

How the data were processed

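The data were 2 peak lists from ATAC-seq, 1 per genotype, each for a group of 3 libraries taken from the sample titles. Alignment used Bowtie2 on mm10 and peak calling MACS2, per the submitters' processing notes. Versions, filters and any pooling of libraries are not stated there. Peak names show which genotype a list belongs to. The authors deposited for each peak a score, a fold (a ratio of summit signal to background), a -log10 p and a -log10 q, with no read counts. The weakest peaks had a -log10 q of 1.3 (Smc3 het) and 1.33 (Smc3 wt).

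Genes (21887 protein-coding, chromosomes 1 to 19, X and Y) came from RefSeq on GRCm38.p6. The gene table gives spans but no exons, so exons and introns were not told apart. A peak whose summit lay equally near to several genes counted for each. Overlap was 1 bp or more. The pileup is the whole number that, with fold as pileup plus 1 over background plus 1, gave the deposited -log10 p as a Poisson tail to within 0.01, tested on simulated data with the overlap and assignment code (Python 3.11.15, numpy 2.4.6, pandas 2.3.3, scipy 1.17.1, bedtools 2.31.1). Motifs were counted in the 250 bases before a start.

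The 5 genes, the ETS list, the motifs and the markers were chosen with earlier results of these data known. Some markers are not reported by name here. The text names all Smc3 wt peaks at the 5 genes, the 3 most significant Smc3 het peaks alone at each and the ETS genes with most and fewest peaks, beside Fli1, Erg, Ets1 and Spi1. Tests over libraries were planned for values per library, which were not analysed here. Alternatives were stricter thresholds, equal list lengths, other overlap rules and other gene assignments.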

Additional observations from a re-analysis of the deposited data

How the results depend on the processing

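No paired analysis was possible because the lists hold no value per library, and for the same reason no library could be left out. The 39 Smc3 het peaks alone became 23 with a -log10 q of at least 5 in both lists, 9 with at least 10 and 1 with a fold of at least 5. They became 6 at equal list length, by -log10 q or by fold. The 44 Smc3 het peaks became 27, 11 and 2 under the same thresholds and 10 at equal length by -log10 q. The 5 Smc3 wt peaks became 2 with a -log10 q of at least 10 and 1 with a fold of at least 5, and the 0 alone became 1 at equal length, by -log10 q or by fold. The other overlap rules gave 38 or 39 alone and the other gene assignments 32 to 39. Among single genes, Elf1 had 4 peaks instead of 11 with the nearest gene end, and Elk3 had 3 instead of 6 inside its span. Peaks over a start window of the gene, an alternative chosen after seeing the data, gave 45 Smc3 het and 6 Smc3 wt peaks with 39 alone. On the gene strand only, GGAA was in 4 of the 7 windows instead of 6 and CCGGAAG in 0 instead of 1. Read depth is unknown, and 10 of the 44 peaks lay in the least significant quintile of the Smc3 het list.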

Other observations

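Inside Elf4 the Smc3 het list held 4 separate peaks within 1789 bp, at 48423740 to 48423977, 48424232 to 48424488, 48424631 to 48425035 and 48425385 to 48425528, with gaps of 254, 142 and 349 bp. Their folds were 2.88, 2.41, 3.87 and 2.63, and their pileups 36, 30, 50 and 34. No Smc3 wt peak overlapped any of them. Of the 46907 placed Smc3 het peaks 20 (0.0426%) belonged to a run of 4 peaks within 2000 bp, these 4 included. The run was noticed first and the limit of 2000 bp was set afterwards, so the share is a description of this list. It lies 28897 to 30456 bp into the gene from the downstream start, and no listed start of Elf4 lies in it.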
